A study of Rattus norvegicus with 6 samples.

Results

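The genes described here are 10 that mark or steer the oligodendrocyte lineage, the glial line that forms myelin: Pdgfra, Lhfpl3, Gpr17, Bmp4, Enpp6, Neu4, Olig1, Olig2, Sox10 and Myrf. They were taken from the 22601 genes of the deposited count table by symbol, which found 9 of them. The tenth, Lhfpl3, stands in the table as LOC103692025, whose number is the NCBI gene ID that RefSeq gives to Lhfpl3. The libraries were made from ventral hippocampus of males of the outbred Sprague Dawley strain, aged rats being 22 months old and adult rats 4 months old. After water maze trials of spatial memory on 10 rats per age, 3 per age were picked at random, and each gave 1 of the 6 libraries. No treatment or genetic change is given in the labels for either age. The comparison asked how the aged hippocampus differed from the adult one.

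Oligodendrocyte precursors persist in the adult brain, divide under platelet-derived growth factor, and pass through a committed, premyelinating stage before they make myelin. The transcription factors Olig1, Olig2 and Sox10 are present along the whole lineage, whereas Myrf is switched on as cells mature and drives myelin genes. Signals such as bone morphogenetic proteins hold precursors back or turn them towards astrocytes in culture. In the hippocampus the lineage supplies myelin to the alveus, fimbria and perforant path.

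Of the 10 genes, 9 had enough reads to be tested, and none differed between the ages at the threshold used. Levels are given as CPM, the reads of a gene scaled to library size. In edgeR's quasi-likelihood test 0 of the 9 were called at a Benjamini-Hochberg adjusted p under 0.05, where 0% of the 14588 genes tested were called, and DESeq2 and limma-voom also called 0 of the 9. Means were lower in aged rats for 8 of the 9, Pdgfra being the exception, and the median log2 fold change (aged over adult) was -0.36. Over all genes tested 50.5% had a log2 fold change below 0, and the median was -0.0022. At an unadjusted p under 0.05, Bmp4, Olig1 and Olig2 lay lower in aged rats, 3 of 9, while 2.27% of all genes did so. Bmp4 was the only one of the 9 whose aged and adult values did not overlap, with every aged value below every adult value, as in 4.43% of all genes. The genes were chosen with earlier results of these libraries known, so these shares describe the 9 genes and are no independent evidence of a direction.

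**Figure D1:**
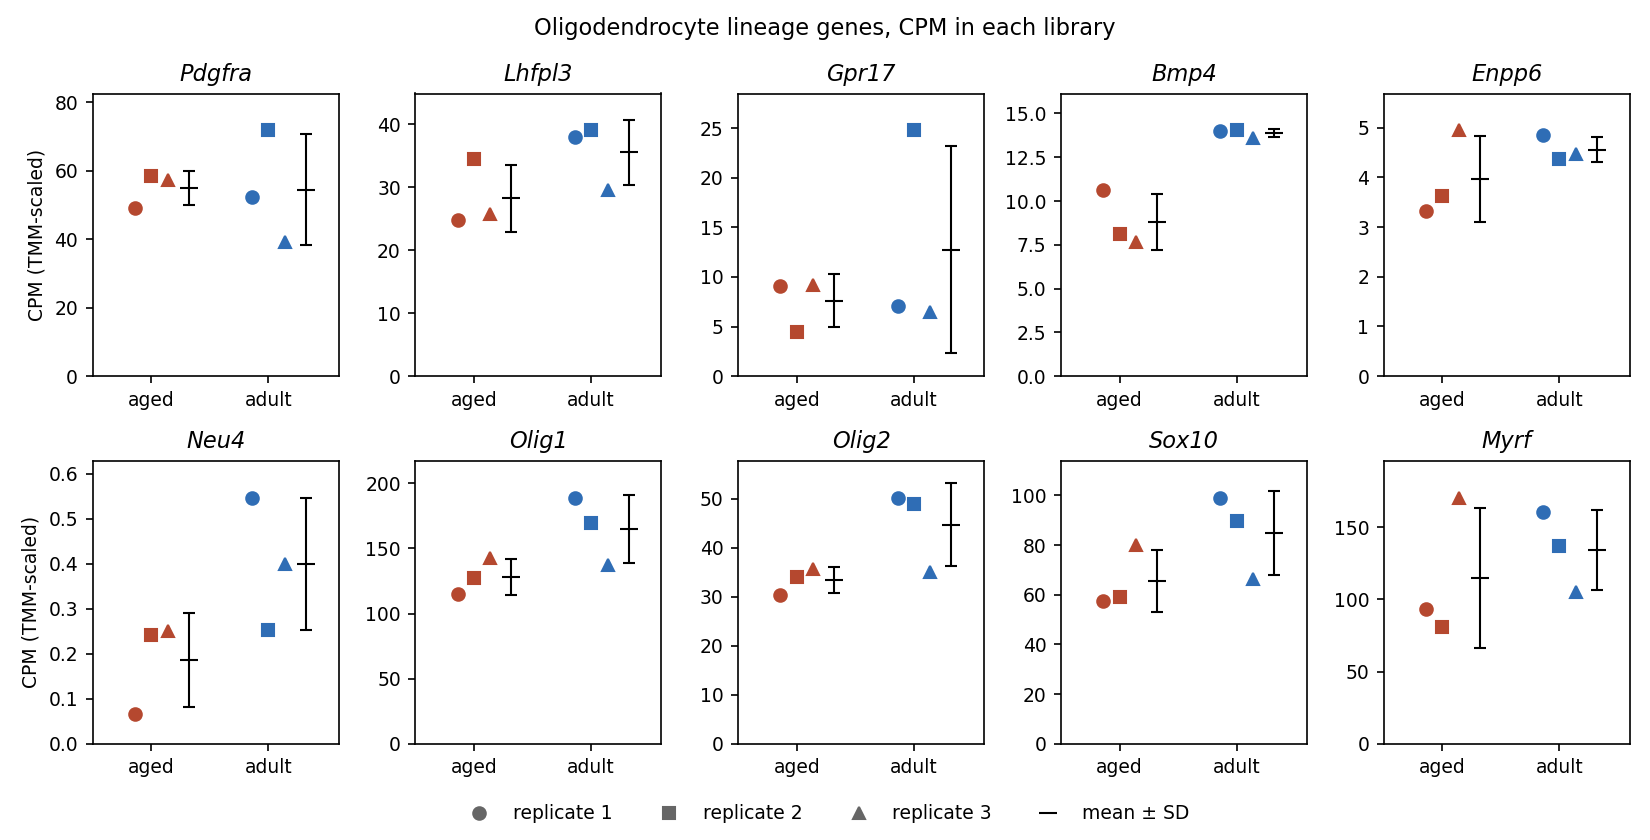
TMM-scaled CPM (reads of a gene per fixed number of reads in the library) of the 10 genes in each library, with aged rats on the left and adult rats on the right of each panel. Symbols mark replicates, and bars give the mean ± SD over 3 rats. Bmp4 lies between 7.64 and 10.6 CPM in aged rats and between 13.6 and 14.0 CPM in adult rats, and Gpr17 in adult replicate 2 stands at 24.8 CPM.

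Several features of the libraries bear on these genes. Library totals ran between 12476758 and 15400405 counts in aged rats and between 14637811 and 15689921 counts in adult rats. All 10 general neuron markers looked up were detected in every library, summing to between 7459 and 9584 CPM in aged rats and to between 7450 and 8201 CPM in adult rats, which does not test the hippocampal label. Of dentate granule cell genes, looked up after the other values were seen, Prox1 averaged 48.9 ± 18.2 CPM in aged rats and 67.2 ± 28.5 CPM in adult rats, and C1ql2 averaged 76.2 ± 6.26 CPM in aged rats and 102.5 ± 63.2 CPM in adult rats. Adult replicate 1 stood apart through choroid plexus. Its 10 choroid plexus markers summed to 2173 CPM, against 10.3 to 75.9 CPM in aged rats. The sums were 27.2 and 53.5 CPM in adult replicates 3 and 2. The 8 ependyma markers summed to 104 CPM in adult replicate 1 and to 21.5 and 22.3 CPM in adult replicates 2 and 3. In aged replicates 1 to 3 they summed to 17.7, 64.9 and 56.1 CPM. Adult replicate 1 was the highest of the 6 libraries for 18 of the 19 genes of mature oligodendrocytes and myelin, and for 16.3% of all genes tested. Liver genes also split the libraries within each age. The 10 looked up, albumin among them, summed to 27.8, 273 and 213 CPM in aged replicates 1 to 3 and to 25.1, 552 and 552 CPM in adult replicates 1 to 3. The part of these transcripts in the levels of the lineage genes was not tested. In bulk tissue, fewer cells of the lineage and less RNA per cell cannot be told apart.

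Per length of transcript, the transcription factors were the most abundant of the 10 genes and the committed-stage genes the least. The authors' FPKM values (reads scaled by gene length and library total) averaged over the 6 libraries were 68.5 for Olig1, 24.8 for Sox10, 21.7 for Myrf and 14.7 for Olig2. Pdgfra followed at 7.64 FPKM, Lhfpl3 at 4.49, Bmp4 at 3.89, Gpr17 at 2.28, Enpp6 at 1.54 and Neu4 at 0.0691 FPKM. Olig1 lay above Sox10, Olig2 above Pdgfra and Enpp6 above Neu4 with no overlap over the 6 libraries. All other neighbours in this order overlapped in their ranges: Sox10 exceeded Myrf in 5 of 6 libraries, Lhfpl3 exceeded Bmp4 in 4, Bmp4 exceeded Gpr17 in 5 and Gpr17 exceeded Enpp6 in 3. FPKM levels of Myrf exceeded those of Olig2 in all 6 libraries, and those of Pdgfra exceeded those of Lhfpl3 in all 6.

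Pdgfra, the receptor through which platelet-derived growth factor A drives precursor division and the gene most used to mark precursors, had nearly equal means at both ages. It stood at 49.2, 58.4 and 57.3 CPM in aged replicates 1 to 3 and at 52.5, 71.8 and 39.3 CPM in adult replicates 1 to 3. All 3 aged values lay inside the adult range. Means were 54.9 ± 5.02 CPM in aged rats and 54.5 ± 16.3 CPM in adult rats (SD, n = 3 each). The log2 fold change was 0.01 ± 0.21 (SE), with a 95% interval of -0.47 to 0.49, so changes up to 1.41-fold higher or to 0.721 of the adult level lie within it (edgeR quasi-likelihood adjusted p = 1.00). Its sign depended on the library left out, at -0.17 without adult replicate 3 and 0.26 without adult replicate 2.

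Fibroblasts of the meninges and vessels also carry Pdgfra. The 10 fibroblast markers looked up summed to between 97.8 and 191 CPM in aged rats and to between 258 and 419 CPM in adult rats, with none of the 10 at 0 in any library, and 7 of the 9 tested had a log2 fold change below 0. No aged rat reached the adult range of the collagen I chain gene Col1a1, which stood at 64.4, 39.0 and 15.8 CPM in aged replicates 1 to 3 and 91.6, 129 and 86.6 CPM in adult replicates 1 to 3. Dcn, another fibroblast gene, overlapped between the ages, at 25.2, 62.9 and 23.2 CPM in aged rats and 40.3, 29.3 and 12.5 CPM in adult rats. The part of fibroblasts in the level of Pdgfra was not tested.

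Lhfpl3, a tetraspan membrane protein gene whose transcript is enriched in precursors of the mouse brain, stood at 24.8, 34.4 and 25.7 CPM in aged replicates 1 to 3. Adult replicates 1 to 3 held 38.0, 39.0 and 29.5 CPM. Aged replicate 2 lay above adult replicate 3, so the groups overlapped. The means were 28.3 ± 5.31 CPM in aged rats and 35.5 ± 5.20 CPM in adult rats, a log2 fold change of -0.33 ± 0.18 (SE; 95% interval -0.74 to 0.08; edgeR adjusted p = 1.00).

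The regulatory sequences of Pdgfra, whose log2 fold change was near 0, and of Bmp4, whose groups did not overlap, are set side by side for the bases they hold just upstream of their RefSeq starts. Both are 250 bases from the GRCr8 assembly, read on the minus strand, from chr14:33408517-33408766 for Pdgfra and chr15:22101934-22102183 for Bmp4. Capitals mark matches to the E-box CANNTG, the class of site that bHLH factors such as Olig1 and Olig2 bind.
Pdgfra: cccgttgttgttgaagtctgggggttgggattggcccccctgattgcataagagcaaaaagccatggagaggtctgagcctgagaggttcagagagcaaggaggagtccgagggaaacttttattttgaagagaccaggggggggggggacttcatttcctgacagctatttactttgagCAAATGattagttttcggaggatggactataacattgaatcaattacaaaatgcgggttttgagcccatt
Bmp4: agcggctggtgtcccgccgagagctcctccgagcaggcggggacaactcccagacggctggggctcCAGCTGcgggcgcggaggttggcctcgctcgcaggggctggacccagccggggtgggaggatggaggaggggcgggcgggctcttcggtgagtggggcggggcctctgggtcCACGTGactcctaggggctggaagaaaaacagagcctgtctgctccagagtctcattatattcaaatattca

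Pdgfra held 1 E-box in this window and Bmp4 held 2, none overlapping another match. CANNTG reads the same on both strands, and 65.5% of the 33469 RefSeq promoter windows of this length held at least 1. The Sox core ACAAAG, searched on both strands (ACAAAG or CTTTGT), matched in neither window, where 16.3% of all windows held it. RefSeq's table held 7 of the 10 genes, and an E-box stood in 5 of these 7 and the Sox core in 1 of them, Enpp6. A match is a run of letters and not a measured binding site.

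The committed, premyelinating stage is marked by Gpr17, Bmp4, Enpp6 and Neu4. Bmp4, a secreted bone morphogenetic protein that blocks maturation of cultured rodent precursors, showed the clearest separation of the 9 genes tested. Its level was 10.6, 8.11 and 7.64 CPM in aged replicates 1 to 3, against 14.0, 14.0 and 13.6 CPM in adult replicates 1 to 3. The adult rats were nearly identical, and the highest aged value lay below the lowest adult value. Averages of 8.80 ± 1.62 CPM in aged rats and 13.9 ± 0.244 CPM in adult rats gave a log2 fold change of -0.66 ± 0.19 (SE), which is 0.634 of the adult level.

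The 95% interval of that fold change ran from -1.10 to -0.21, the unadjusted edgeR p was 0.00915, and the adjusted p was 1.00. Of the 14588 genes tested, 94 had a smaller p. An exact two-sided permutation test of the difference in mean log2 CPM gave p = 0.1 for Bmp4, the smallest p that 3 rats against 3 allow. Leaving out each library in turn kept the log2 fold change of Bmp4 between -0.80 and -0.56, and DESeq2 gave it an adjusted p of 0.566. Bmp4 is also made by vessel-associated and meningeal cells. The 10 pericyte and smooth muscle markers summed to between 139 and 195 CPM in aged rats and to between 218 and 284 CPM in adult rats, 9 of 10 with a log2 fold change below 0. The 10 endothelial markers summed to between 284 and 411 CPM in aged rats and between 392 and 535 CPM in adult rats, with 10 of 10 below 0. None of these vessel markers was at 0 in any library, and their part in the level of Bmp4 was not tested. In GRCr8, Bmp4 overlaps LOC134481955, Lhfpl3 and Enpp6 overlap other loci, and the use of strand in counting is not stated.

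Gpr17, a G protein-coupled receptor carried by committed precursors, was set apart by 1 library. It stood at 9.05, 4.50 and 9.20 CPM in aged replicates 1 to 3 and at 7.03, 24.8 and 6.46 CPM in adult replicates 1 to 3. Adult replicate 2 was more than 2 times every other library, and without it both aged replicates 1 and 3 lay above the other adult rats. The mean was 7.58 ± 2.67 CPM in aged rats and 12.8 ± 10.4 CPM in adult rats, and the log2 fold change of -0.75 ± 0.54 (SE; 95% interval -1.99 to 0.50; edgeR adjusted p = 1.00) became 0.17 without adult replicate 2. In GRCr8 the gene overlaps Lims2, which stood between 3.94 and 4.51 CPM in aged rats and between 4.36 and 5.67 CPM in adult rats, with 4.36 CPM in adult replicate 2.

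Adult replicate 2 was also the library in which most of the other precursor genes listed peaked. Of 16 other precursor genes tested, 9 were highest there, whereas 15.6% of all genes tested were. Among genes of the pathway lists, the pattern closest to that of Gpr17 over the 6 libraries belonged to Sox6, a transcription factor of precursors. Sox6 stood at 3.06, 3.70 and 5.57 CPM in aged replicates 1 to 3 and at 3.07, 8.53 and 2.67 CPM in adult replicates 1 to 3. The root mean square difference between the centred log2 CPM of Gpr17 and Sox6 was 0.449, against a deviation of Gpr17 around its own mean of 0.751. Peaks in adult replicate 2 were not limited to precursor genes. It was the highest library for 10 of 10 endothelial markers, 8 of 10 pericyte and smooth muscle markers and 5 of 10 astrocyte markers.

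Enpp6, a choline-specific phosphodiesterase that marks newly forming oligodendrocytes in mouse, was sparse. It had 50, 45 and 79 reads in aged replicates 1 to 3, or 3.33, 3.61 and 4.94 CPM, and 71, 69 and 67 reads in adult replicates 1 to 3, or 4.85, 4.36 and 4.47 CPM. Aged replicate 3 was the highest of all 6 libraries and the other aged rats were the lowest. Means of 3.96 ± 0.862 CPM in aged rats and 4.56 ± 0.257 CPM in adult rats gave a log2 fold change of -0.20 ± 0.27 (SE; 95% interval -0.82 to 0.42; edgeR adjusted p = 1.00). The log2 fold change of Enpp6 was -0.07 without aged replicate 1 and -0.39 without aged replicate 3.

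Neu4, a sialidase gene, had 1, 3 and 4 reads in aged replicates 1 to 3 and 8, 4 and 6 reads in adult replicates 1 to 3. Its CPM was 0.0666, 0.241 and 0.2503 in aged replicates 1 to 3 and 0.546, 0.2528 and 0.3999 in adult replicates 1 to 3. Every aged value of Neu4 lay below every adult value, with an exact two-sided permutation p = 0.1, the smallest that 3 rats against 3 allow. The nearest pair, aged replicate 3 and adult replicate 2, had 4 reads each and was parted only by the scaling to library size. Neu4 did not pass the filter on low counts, so edgeR gave it no fold change.

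The lineage factors Olig1, Olig2 and Sox10 shared 1 order of libraries. Each was highest in adult replicate 1, followed by adult replicate 2, aged replicate 3, adult replicate 3, aged replicate 2 and aged replicate 1. Olig1, a basic helix-loop-helix factor needed for maturation and repair, stood at 115, 127 and 143 CPM in aged replicates 1 to 3 and at 189, 169 and 137 CPM in adult replicates 1 to 3. Aged replicate 3 passed adult replicate 3, so the groups overlapped by 1 pair of rats. Its mean was 128 ± 13.7 CPM in aged rats and 165 ± 26.2 CPM in adult rats, a log2 fold change of -0.36 ± 0.15 (SE; 95% interval -0.71 to -0.01; unadjusted p = 0.0431 and adjusted p = 1.00 by edgeR).

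Olig2, the related factor that specifies the lineage, stood at 30.4, 34.1 and 35.5 CPM in aged replicates 1 to 3 and at 50.1, 48.9 and 35.0 CPM in adult replicates 1 to 3. Adult replicate 3 lay within the aged range, and the other adult rats lay well above it. The averages were 33.3 ± 2.64 CPM in aged rats and 44.7 ± 8.42 CPM in adult rats, and the log2 fold change was -0.42 ± 0.16 (SE; 95% interval -0.80 to -0.05; unadjusted p = 0.0324 and adjusted p = 1.00 by edgeR). Sox10, a factor of the SoxE group that switches on Myrf and myelin genes, stood at 57.6, 59.0 and 80.1 CPM in aged replicates 1 to 3 and at 99.0, 89.8 and 66.2 CPM in adult replicates 1 to 3. Here too aged replicate 3 passed adult replicate 3. Sox10 averaged 65.6 ± 12.6 CPM in aged rats and 85.0 ± 16.9 CPM in adult rats, a log2 fold change of -0.37 ± 0.19 (SE; 95% interval -0.81 to 0.06; edgeR adjusted p = 1.00).

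Exact two-sided permutation tests gave p = 0.2 for each of Olig1, Olig2 and Sox10. Without adult replicate 1 their log2 fold changes were -0.24, -0.32 and -0.24, and without adult replicate 3 the fold changes of Olig1 and Olig2 were -0.47 and -0.56. Beside these factors, the 19 mature oligodendrocyte and myelin genes summed to between 8292 and 10847 CPM in aged rats and to between 13227 and 19903 CPM in adult rats, with none at 0 in any library. The number of mature oligodendrocytes in each sample was not tested.

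Myrf, the membrane-tethered factor that cuts itself free and turns on myelin genes, varied more among aged rats than among adult rats. It stood at 93.2, 81.0 and 170 CPM in aged replicates 1 to 3 and at 161, 137 and 105 CPM in adult replicates 1 to 3. Aged replicate 3 was the highest of all libraries, and the other aged rats were the lowest. The means of 115 ± 48.5 CPM in aged rats and 134 ± 28.1 CPM in adult rats gave a log2 fold change of -0.22 ± 0.29 (SE; 95% interval -0.88 to 0.43; edgeR adjusted p = 1.00). The log2 fold change of Myrf was -0.62 without aged replicate 3 and -0.02 without aged replicate 2. Its closest pattern among the pathway genes was that of Mag, a myelin adhesion protein, at 226, 186 and 339 CPM in aged rats and 419, 343 and 277 CPM in adult rats (root mean square difference 0.138, against 0.401 for the deviation of Myrf around its own mean).

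**Figure D2:**
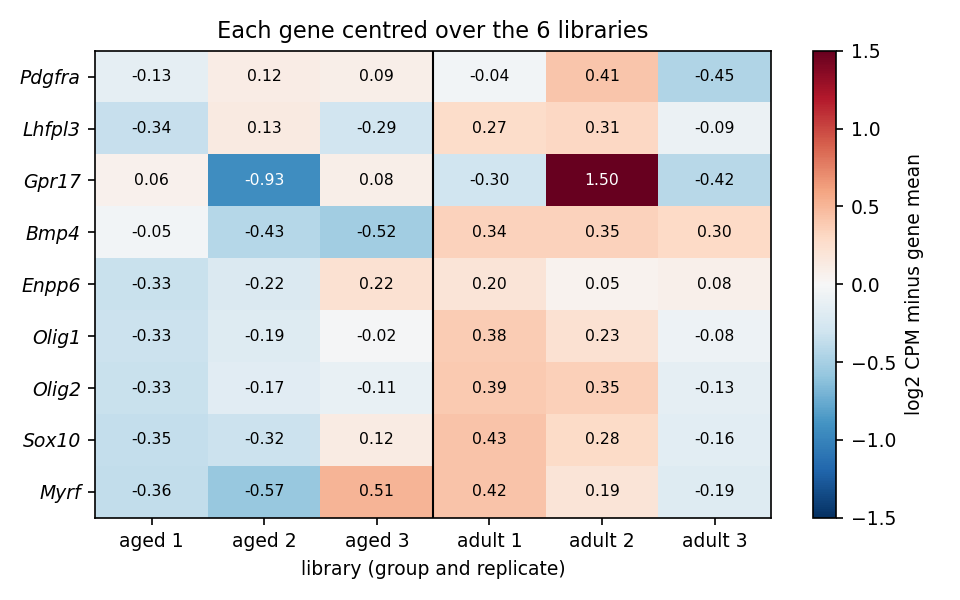
Level of each of the 9 genes tested in each library, as log2 CPM minus that gene's mean over the 6 libraries, with aged rats in the 3 left columns and adult rats in the 3 right columns. Gpr17 in adult replicate 2 is the highest cell, and Myrf in aged replicate 3 (0.51) and the lineage factors in adult replicate 1 (0.38 to 0.43) lie above their means.

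The plot of centred levels showed that no library was high or low for every gene. Of the 9 genes tested, 4 were highest in adult replicate 2, 3 in adult replicate 1 and 2 in aged replicate 3, and 5 were lowest in aged replicate 1. Over all genes tested, 15.6%, 16.3% and 16.0% were highest in these 3 libraries, and 15.2% were lowest in aged replicate 1. Adult replicate 3 was the odd library of its age, with a median centred value of -0.13, against 0.31 and 0.34 in adult replicates 2 and 1 and -0.33, -0.22 and 0.08 in aged replicates 1, 2 and 3. For 8 of the 9 genes adult replicate 3 lay below at least 1 aged rat, the exception being Bmp4. The number of genes with an unadjusted p under 0.05 was 5 of 9 without adult replicate 3, where 412 of 14831 genes tested had such a p. It was also 5 of 9 without aged replicate 3 (533 of 14824 genes) and 2 of 9 without aged replicate 2 (650 of 14834 genes). It was 1 of 9 without aged replicate 1 (405 of 14845 genes), without adult replicate 1 (614 of 14827 genes) and without adult replicate 2, where 773 of 14803 genes, the most of these fits, had such a p.

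**Figure D3:**
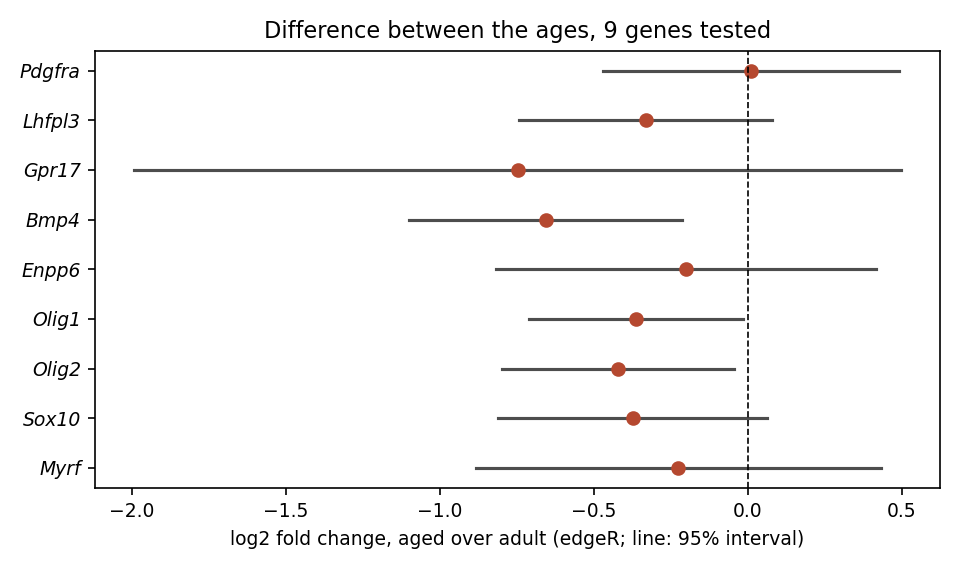
Log2 fold change of aged over adult rats for the 9 genes tested, from edgeR, with 95% intervals. Intervals of Bmp4 (-1.10 to -0.21), Olig1 and Olig2 lie below 0 before adjustment over all genes, and those of the other 6 genes cross it.

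Expressing each gene relative to Sox10 in the same library asked whether the genes moved unequally within the lineage. Of 9 such ratios, none separated the ages, and the differences (aged minus adult, log2) ran from -0.39 to 0.42. The ratio of Pdgfra to Sox10 had the largest positive difference. Its log2 value was -0.23, -0.02 and -0.48 in aged replicates 1 to 3 and -0.92, -0.32 and -0.75 in adult replicates 1 to 3. Aged rats averaged -0.24 ± 0.23 and adult rats -0.66 ± 0.31, a difference of 0.42 (exact two-sided permutation p = 0.2, 9 ratios tested and not adjusted), and adult replicate 2 lay within the aged range.

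Relative to Sox10, the means of Olig1 and Olig2 differed between the ages by less than their SDs. The log2 ratio of Olig1 to Sox10 averaged 0.98 ± 0.14 in aged rats and 0.96 ± 0.07 in adult rats, and that of Olig2 to Sox10 averaged -0.96 ± 0.19 in aged rats and -0.92 ± 0.05 in adult rats (exact permutation p = 1 and p = 0.8). Bmp4 relative to Sox10 was -2.42, -2.84 and -3.37 in aged replicates 1 to 3 and -2.81, -2.67 and -2.27 in adult replicates 1 to 3. This ratio overlapped between the ages, unlike the CPM of Bmp4, with a difference of -0.29 (exact permutation p = 0.4) that was -0.52 without aged replicate 1 and -0.049 without aged replicate 3. The ratios of the other genes, Gpr17, Enpp6, Lhfpl3, Myrf and Neu4, had exact permutation p-values between 0.4 and 1, and that of Neu4 rests on 1 to 8 reads per library.

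**Figure D4:**
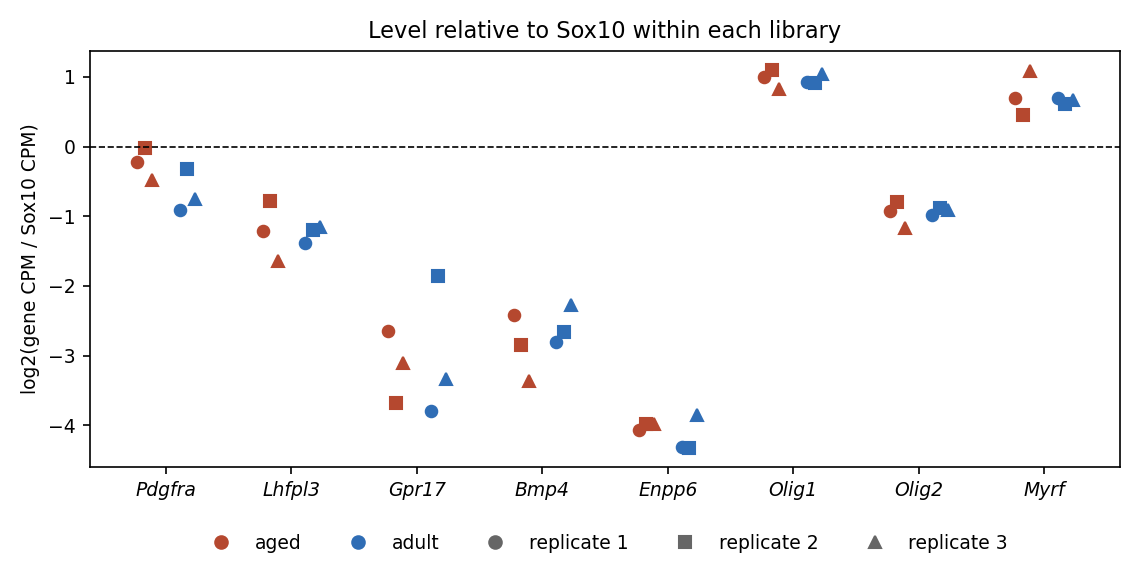
Log2 ratio of each gene's CPM to that of Sox10 in the same library, aged rats to the left and adult rats to the right within each gene, for 8 genes (Neu4 is left out for its low counts). Aged and adult values overlap for every gene, and Pdgfra averages -0.24 in aged rats and -0.66 in adult rats.

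Other genes of the lineage, given by stage, differed in how many lay lower in aged rats. None of the genes in the lists below was called by edgeR at an adjusted p under 0.05. Among 16 other precursor genes, 7 had a log2 fold change below 0 and 9 above, with a median of 0.05 and 0 at an unadjusted p under 0.05. The 2 with the smallest p were Gpr37l1, a receptor also made by astrocytes, at 221 ± 33.6 CPM in aged rats and 266 ± 48.1 CPM in adult rats, and C1ql1, a secreted C1q-like protein, at 27.1 ± 7.84 CPM in aged rats and 32.8 ± 3.78 CPM in adult rats. Both overlapped between the ages. The median of this list ranged from -0.14 to 0.22 over the other settings and left-out libraries.

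Genes of committed precursors and new oligodendrocytes lay lower in aged rats for 14 of 16, and the list's median log2 fold change stood at -0.30. Of the 16, 4 had an unadjusted p under 0.05, all lower, while 2.27% of all genes tested did so. Over all genes tested 50.5% had a log2 fold change below 0. Gpr37, a receptor of maturing oligodendrocytes, averaged 98.0 ± 8.85 CPM in aged rats and 144 ± 26.6 CPM in adult rats (log2 fold change -0.56 ± 0.16 SE). Sirt2, a deacetylase abundant in myelinating cells, averaged 237 ± 13.6 CPM in aged rats and 317 ± 28.8 CPM in adult rats (log2 fold change -0.42 ± 0.12 SE). In both genes, the 2 with the smallest p of the list, every aged rat lay below every adult rat. This held for 4 of the 16, and for 4.43% of all genes tested.

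Mature oligodendrocyte and myelin genes lay lower in 18 of 19, with a median of -0.65, and 13 had an unadjusted p under 0.05, all lower. Over all genes tested, 50.5% had a log2 fold change below 0 and 2.27% lay lower at such a p. In 11 of the 19 every aged value lay below every adult value, as in 4.43% of all genes. The list was chosen with earlier results of these data known. Ugt8, which makes the myelin lipid galactosylceramide, stood at 65.7, 55.7 and 70.3 CPM in aged replicates 1 to 3 and at 152, 115 and 91.8 CPM in adult replicates 1 to 3. Mbp, myelin basic protein, stood at 4077, 4586 and 5416 CPM in aged rats and 10951, 6864 and 7379 CPM in adult rats. The median of this list was between -0.77 and -0.41 over the other settings and left-out libraries. The value of -0.41 came without adult replicate 1, the library that was highest for 18 of the 19 genes. The difference between the precursor and mature lists was not tested.

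**Figure D5:**
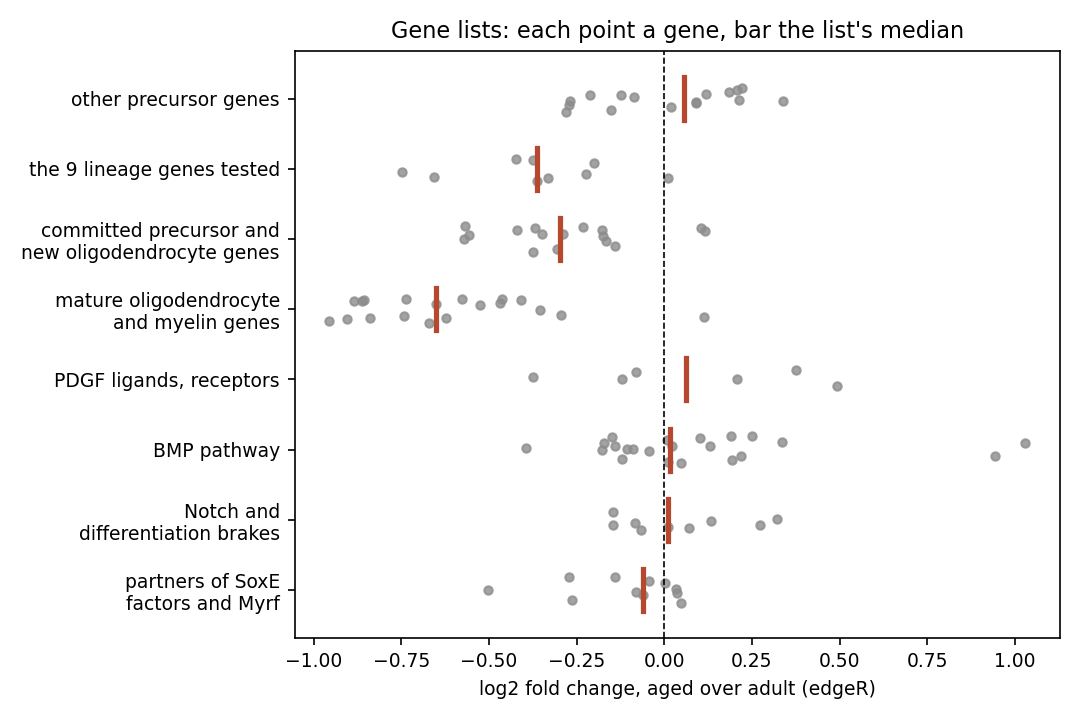
Log2 fold change of aged over adult rats (edgeR) for each gene tested of 8 lists, with each list's median as a bar. The median is 0.05 for other precursor genes, -0.36 for the 9 lineage genes, -0.30 for committed precursor genes and -0.65 for myelin genes, and it lies between -0.06 and 0.06 for the PDGF, BMP, Notch and partner lists.

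The signalling partners of these genes had medians near 0 with all 6 libraries. Among 6 other PDGF ligands and receptors, 3 lay lower and 3 higher, with a median of 0.06 that became 0.30 without adult replicate 2 and 0.23 without aged replicate 3. Pdgfrb, the receptor of pericytes, averaged 30.3 ± 1.81 CPM in aged rats and 39.3 ± 7.61 CPM in adult rats, with no overlap (log2 fold change -0.37 ± 0.16 SE, edgeR adjusted p = 1.00). It was the 1 gene of the 6 with every aged value below every adult value, as in 4.43% of all genes tested. Pdgfc, a ligand of PDGFRA, averaged 2.89 ± 0.695 CPM in aged rats and 2.06 ± 0.527 CPM in adult rats.

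The BMP pathway held 22 tested genes, 9 lower and 13 higher in aged rats, with a median of 0.02. The 2 with the smallest p were other ligands, and both averaged higher in aged rats, unlike Bmp4. Bmp3, a ligand that opposes other BMPs, stood at 7.45, 3.45 and 5.13 CPM in aged replicates 1 to 3 and at 2.46, 3.67 and 1.73 CPM in adult replicates 1 to 3, with 1 overlapping pair (log2 fold change 1.03 ± 0.40 SE, edgeR adjusted p = 1.00). Bmp2 was rare, at 1.61 ± 0.904 CPM in aged rats and 0.824 ± 0.597 CPM in adult rats. Among 9 tested genes of Notch signalling and differentiation brakes, 4 lay lower and 5 higher, with a median of 0.01 that became 0.19 without adult replicate 2. Lingo1, a membrane protein that restrains oligodendrocyte maturation, averaged 283 ± 66.9 CPM in aged rats and 226 ± 36.5 CPM in adult rats, and Notch1 averaged 45.4 ± 6.24 CPM in aged rats and 50.3 ± 4.28 CPM in adult rats. Both overlapped between the ages.

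Partners and relatives of SoxE factors and Myrf lay lower for 7 of 11 tested, with a median of -0.06. Sox9, the SoxE factor of astrocytes and early precursors, stood at 27.8, 31.0 and 30.2 CPM in aged replicates 1 to 3 and at 47.7, 44.7 and 33.7 CPM in adult replicates 1 to 3, so that no aged rat reached the adult range (log2 fold change -0.50 ± 0.16 SE, edgeR adjusted p = 1.00). It had the pattern closest to Olig2 and to Olig1 of 112 pathway genes, with root mean square differences of 0.0571 and 0.0969 log2 units over the 6 libraries. Nkx2-2, a homeodomain factor of precursors, averaged 5.10 ± 0.507 CPM in aged rats and 6.16 ± 0.346 CPM in adult rats, also without overlap. The 10 astrocyte markers, of which Sox9 is one, summed to between 5752 and 6932 CPM in aged rats and between 5483 and 7102 CPM in adult rats. Of these 10 markers, 6 had a log2 fold change below 0 and none was at 0 in any library.

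For the other genes tested the closest patterns were those of Lhfpl2 for Pdgfra, Gjb1 for Bmp4, Opalin for Sox10, Plekha1 for Enpp6 and Lhfpl6 for Lhfpl3, with root mean square differences between 0.0865 and 0.132. Paralogs of the 10 genes showed no common direction, with 10 of 16 tested lower and a range of log2 fold changes from -1.47 to 0.49. The lowest was Enpp2, the autotaxin gene, which choroid plexus also makes, at 89.5, 52.9 and 90.6 CPM in aged replicates 1 to 3 and at 411, 133 and 102 CPM in adult replicates 1 to 3. Its highest value stood in the library with the most choroid plexus transcripts. Among the sialidases, Neu1 averaged 33.1 ± 1.65 CPM in aged rats and 34.5 ± 2.36 CPM in adult rats, Neu2 averaged 1.74 ± 0.427 CPM in aged rats and 1.74 ± 0.681 CPM in adult rats, and Neu3 averaged 5.78 ± 1.76 CPM in aged rats and 5.42 ± 1.11 CPM in adult rats. All of these overlapped between the ages.

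Proliferation genes, which include those of dividing precursors, lay lower in 6 of 8 tested, with a median log2 fold change of -0.66. In 3 of the 8, named here after their values were seen, every aged value lay below every adult value and the unadjusted edgeR p was under 0.05. Over all genes tested, 2.27% lay lower at such a p, and 4.43% had every aged value below every adult value. The filter on low counts asked for enough reads in 3 libraries, and these 3 genes met it only through the adult rats. Their separation, p-values and fold changes are therefore no independent evidence of a direction. Top2a, the topoisomerase of dividing cells, stood at 0.333, 0.723 and 0.0626 CPM in aged replicates 1 to 3 and at 1.503, 2.28 and 0.866 CPM in adult replicates 1 to 3 (log2 fold change -2.09 ± 0.72 SE, edgeR adjusted p = 1.00). Mki67, the gene of the Ki-67 proliferation antigen, stood at 0.799, 0.402 and 0.188 CPM in aged rats and at 1.09, 3.10 and 0.933 CPM in adult rats (log2 fold change -1.87 ± 0.68 SE, edgeR adjusted p = 1.00). Cdk1, the kinase that drives entry into mitosis, averaged 0.276 ± 0.110 CPM in aged rats and 0.900 ± 0.106 CPM in adult rats (log2 fold change -1.67 ± 0.51 SE, edgeR adjusted p = 1.00). These mitotic genes are rare, so each value rests on few reads, and which cells carried them was not tested. Pcna, a DNA replication clamp gene and by far the most abundant of the 8, averaged 36.2 ± 1.91 CPM in aged rats and 36.0 ± 1.59 CPM in adult rats. Ccnb1, Birc5 and Mcm2 had log2 fold changes of -0.19, -0.06 and 0.07, and Cenpf had -1.13. All of these overlapped between the ages.

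Of the 10 microglia markers, 9 had a log2 fold change above 0, with a median of 0.18. They summed to between 401 and 581 CPM in aged rats and between 358 and 452 CPM in adult rats. Of the 10, 7 were highest in aged replicate 2 and 8 were lowest in adult replicate 3. Over all genes tested these shares were 18.5% and 16.6%.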

How the data were processed

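The authors deposited whole-number read counts per gene symbol, 1 column per library, and FPKM values. Each gene's deposited FPKM was its count divided by 1 fixed length and by the library total in all 18553 genes with a count (within 0.1%), so the tables differ only in scale. The genome was Rnor_6.0, per the submitters' processing notes, and the sources used here do not name the aligner, counter, annotation or strand setting. edgeR's filterByExpr kept 14588 genes. After TMM scaling these were tested with edgeR 4.0.16 (glmQLFit, glmQLFTest; R 4.3.3), aged over adult, age as the only term, two-sided, with Benjamini-Hochberg adjustment over all genes and a threshold of 0.05. SEs and 95% intervals come from the F statistic. CPM values are TMM-scaled, and log2 CPM used a prior count of 2. Exact permutation tests were run on 10 levels and 9 ratios, where 3 against 3 cannot go below p = 0.1. Mbp and the tested sialidase paralogs of Neu4 were named in any case. Other pathway genes were named by the 2 smallest p of each list, and by closeness of pattern to those of the 10 genes that were tested. A gene that this rule takes is not reported here. The 10 genes and all lists were chosen with earlier results of these data known. Alternatives were other scalings, filters and thresholds, DESeq2 1.42.0, limma 3.58.1 (voom, or log2 FPKM with a pseudocount of 1 or 0.1), robust fitting, a replicate block and leaving out each library. Fits were tested on simulated counts. Names, overlaps and promoters come from RefSeq's GRCr8 tables, which matched 18330 of 22601 table genes. Figures were drawn with matplotlib 3.10.9.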

Additional observations from a re-analysis of the deposited data

How the results depend on the processing

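None of the 9 genes tested was called by edgeR, DESeq2 or limma under any setting run, and 3 had an unadjusted edgeR p under 0.05, as with DESeq2 and limma-voom. That number was 1 with library size scaling, with FPKM values and with the replicate block. Over all genes, the 0 called (503 at an unadjusted p under 0.05) became 31 with DESeq2, 2 with log2(FPKM + 1) and 0 to 1 when leaving out 1 library each. The log2 fold changes of Bmp4, Olig1, Olig2, Sox10, Enpp6, Lhfpl3 and Myrf stayed below 0 under all of these settings. Leaving out 1 library gave -0.17 to 0.26 for Pdgfra and -1.06 to 0.17 for Gpr17 in the edgeR fit. For the difference in mean log2 CPM it gave -0.16 to 0.27 for Pdgfra and -0.86 to 0.10 for Gpr17. The ratio to Sox10 likewise ran from -0.55 to 0.42 for Gpr17, -0.0484 to 0.0869 for Olig1, -0.12 to 0.0687 for Olig2, -0.18 to 0.25 for Lhfpl3 and -0.0845 to 0.23 for Myrf. That of Neu4 became 0.27 with log2(FPKM + 1), a scale on which its 0.0154 to 0.129 FPKM lies far below the added 1. The cause of this change of sign was not tested. Deviations of same-numbered libraries had correlations of -0.0152, -0.057 and 0.0865, within the -0.124 to 0.118 of differently numbered pairs. With 3 rats per age these correlations cannot tell whether same-numbered libraries were paired or shared a batch. With the replicate block 0 genes were called. With 3 rats per age, intervals are wide, and Enpp6 and Neu4 are further limited by their low counts.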
